A study of Mus musculus with 23 samples.

Results

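Of the 118102 genomic regions that at least 1 of 9 open-chromatin peak lists covered, 318, or 0.269%, were called in all 3 lists of embryonic day (E) 12.5 and in none of the 6 lists of E10.5 and E11.5. These 318 are called E12.5-only regions here. They were found by merging the peaks of the 9 lists on the 19 autosomes and the X chromosome wherever peaks shared at least 1 bp, and by then reading which lists had a peak in each merged region. The regions were thus chosen by the calls of all 9 lists, and their calls, folds, q-values and widths are given as descriptions with no test. The same rule gave 618 regions for E11.5 and 33 for E10.5, and 3385 further regions were called by all 3 E12.5 lists together with 1 or more earlier lists.

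The lists come from ATAC-seq, in which a transposase inserts sequencing adapters into accessible DNA. The assay was run on mesenchymal cells of the mouse maxillary prominence, the facial process that forms the upper jaw and the secondary palate. Wild-type C57BL/6 embryos of the 3 ages were used, Dispase treatment freed the mesenchyme of its ectoderm, and 3 samples were sequenced per stage in 1 to 4 runs each. All groups share strain, genotype and preparation and differ by stage. The labels do not give the litters or the number of embryos behind a sample. Any p-value therefore speaks for these samples only, and it rests largely on a spread taken from all genes together, as described below.

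Maxillary mesenchyme descends mainly from cranial neural crest and is patterned by signals from the overlying epithelium, among them fibroblast growth factors (FGFs), bone morphogenetic proteins, Wnts, hedgehog and retinoic acid. Open chromatin falls broadly into promoters, many of which are accessible in most cell types, and distal elements between and inside genes, many of which are enhancers whose accessibility changes with cell type and stage. A peak shows accessibility, not activity, and the nearest gene of a distal element need not be its target. In a bulk sample, a new peak in a fraction of the cells and a weaker opening in all of them cannot be told apart.

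The E12.5-only regions lay almost entirely outside promoters, and 5 of the 308 on chromosomes with promoter sequence (1.62%) touched a promoter window, defined as 250 bases before to 50 bases after a RefSeq transcription start. The same share was 9.45% over all regions and 48.0% over the 3385 regions shared with earlier lists. Because these 5 are the exception, the upstream stretch that each region covers is shown here for the 4 with such a stretch, 5′ to 3′ on the gene's strand, from RefSeq on GRCm38 (mm10). Capitals mark matches to searched motifs on either strand.

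Gm34963: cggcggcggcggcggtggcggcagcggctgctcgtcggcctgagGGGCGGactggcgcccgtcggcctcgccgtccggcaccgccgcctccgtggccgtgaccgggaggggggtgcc
Hoxc4: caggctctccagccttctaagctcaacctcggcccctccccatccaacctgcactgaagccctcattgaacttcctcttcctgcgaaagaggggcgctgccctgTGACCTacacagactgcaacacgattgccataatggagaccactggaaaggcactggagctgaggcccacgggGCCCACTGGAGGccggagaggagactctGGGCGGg
Gm33974: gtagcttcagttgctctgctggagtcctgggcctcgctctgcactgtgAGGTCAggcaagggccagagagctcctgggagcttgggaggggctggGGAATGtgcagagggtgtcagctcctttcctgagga
Plcxd1: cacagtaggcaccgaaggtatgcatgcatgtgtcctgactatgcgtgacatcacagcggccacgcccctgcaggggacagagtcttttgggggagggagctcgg

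The Gm34963 stretch is chr11:43682198-43682314 (minus strand), 117 bp long and upstream of the start of a non-coding gene next to Pwwp2a, a gene for a chromatin-binding protein. It holds GGGCGG, the SP/KLF box, which occurs in 35.9% of all 32619 promoter windows, and its window has 79.0% GC and 48 CpG sites against medians of 53.0% and 7 over all windows. The region's summit lies 533 bp upstream of the start, inside Pwwp2a. Its fold was 3.72, 3.34 and 4.31 in E12.5 samples 1, 2 and 3, at percentiles 65.0, 96.7 and 98.8 of these lists, so it was high in samples 2 and 3 and less so in sample 1.

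The Hoxc4 stretch is chr15:103034145-103034356 (plus strand) and covers 212 bp, with the summit 269 bp upstream of the start. Hoxc4 belongs to the HOX family of homeodomain factors that pattern the trunk, and first-arch neural crest is known for lacking HOX expression. The stretch holds TGACCT, the reverse of the nuclear receptor box AGGTCA (16.2% of all windows), 1 match to the CTCF core (8.67%) in reverse, and 1 SP/KLF box. Folds of 3.47, 2.55 and 2.89 put this region near the middle of each list, at percentiles 46.4, 59.8 and 55.4.

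The Gm33974 stretch is chr9:35317820-35317950 (plus strand) and carries AGGTCA and GGAATG, the TEAD box (14.6% of all windows). Its folds were 3.84, 2.10 and 2.80, and a peak of an earlier list lay 54 bp from the region, so it is called absent earlier by a narrow margin. The Plcxd1 stretch, chr5:110100309-110100412 (plus strand), holds none of the searched motifs, and its folds of 2.93, 2.07 and 2.12 were near the bottom of each list. The fifth region overlaps the Krtcap3 window by 7 bp downstream of the start on chromosome 5, with folds of 3.18, 1.95 and 2.91. No 2 of the 4 stretches shared the same set of motifs.

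The motifs searched on both strands were AP-1 (TGANTCA), an E-box (CAGCTG) with its variant form (CATCTG), homeodomain (TAATTA), the GATA factor box (AGATAA), RUNX (TGTGGT), SOX (ACAAAG), TEAD (GGAATG), forkhead (TGTTTAC), nuclear receptor (AGGTCA), ETS (CCGGAAG), SP/KLF (GGGCGG), and the CTCF core, NFI and MEF2 patterns. Matches are descriptions of letters, not evidence of binding. Outside the promoter windows no mm10 sequence was used here, so the distal regions, which make up nearly all of the set, are described by position and value only.

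Fold here is the enrichment at a peak's summit over local background as the authors' peak caller gave it, and it is compared within a list only. Whole lists differed in it: the median over all peaks was 5.06, 4.99 and 3.13 in E11.5 samples 1, 2 and 3. It was 2.56 to 3.13 in the E10.5 lists and 2.47 to 3.50 in the E12.5 lists. The part of these list differences in contrasts with E11.5 was not tested. In E12.5 sample 1 the fold of the 318 regions ran from 2.32 through a median of 3.46 to 5.83. In sample 2 it ran from 1.86 through 2.54 to 3.81, and in sample 3 from 2.02 through 2.76 to 4.31. Against all peaks of the same list the medians stood at percentiles 45.9, 59.3 and 41.4, so the set lay around the middle of each list. The 3385 regions also called earlier had medians at percentiles 73.1, 90.0 and 75.8, and were higher in each of the 3 lists.

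**Figure D1:**
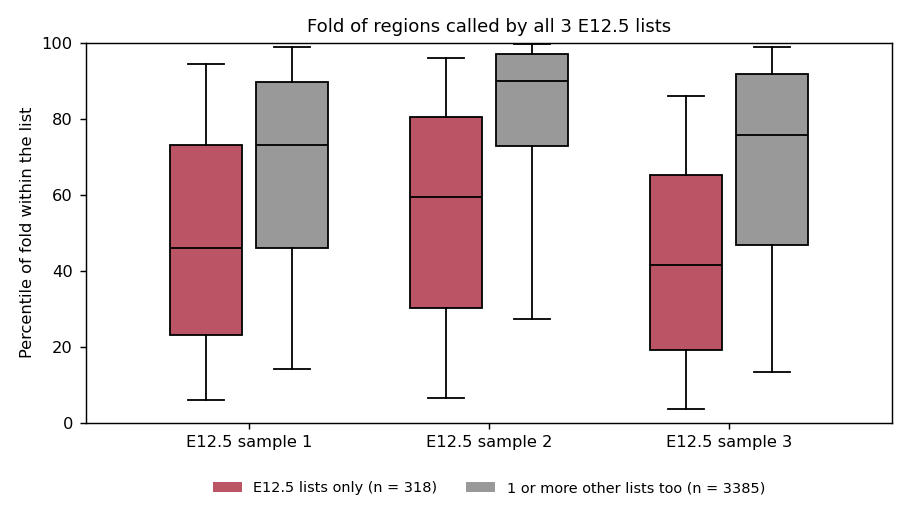
Percentile of the authors' fold within each E12.5 list (vertical axis) for the 318 E12.5-only regions (red) and the 3385 regions that earlier lists called too (grey). Boxes span the quartiles with the median as a line and whiskers reach the 5th and 95th percentile; the red medians of 45.9, 59.3 and 41.4 lie below the grey ones of 73.1, 90.0 and 75.8.

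Individual regions varied widely and only partly together. Of the 318, 62 lay above the middle of all 3 lists, 80 below the middle of all 3, and 27, 43 and 11 were in the top 10% of samples 1, 2 and 3. Spearman correlations of fold over the 318 regions were 0.42, 0.36 and 0.42 for the list pairs 1 and 2, 1 and 3, and 2 and 3. These are descriptions across regions of the same libraries. Some folds were tied: 51, 69 and 64 regions had exactly the fold and q-value of another E12.5-only region in samples 1, 2 and 3, and 13 regions in sample 1 shared a fold of 3.50 with a −log10 q of 2.47.

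By the authors' q-values the calls were modest. Median −log10 q was 3.12, 3.51 and 2.77 in the 3 lists, 233 regions reached 2 in all 3, 48 reached 3 in all 3, and none reached 5 in all 3. The region whose weakest q was best had a −log10 q of 4.43 in that list. Requiring a −log10 q of 5 of every peak in all 9 lists left 14 regions called by the E12.5 lists alone. None of these 14 was among the 318, which follows from the threshold, as none of the 318 reached it in all 3 lists.

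Width had a median of 378.5 bp (167 to 941). This was above the 195 bp of all regions and below the 876 bp of regions shared with earlier lists. Merging more peaks widens a region. All regions are mostly called by a single list, the E12.5-only regions by 3 lists, and the shared regions by more. Summits of the 3 lists lay a median of 149 bp apart at their widest (quartiles 93 and 223 bp), and within 200 bp of each other in 214 regions. In 249 regions a common stretch of at least 1 bp lay under all 3 peaks, whereas the other 69 were joined end to end through a middle peak. The gap to the nearest peak of any earlier list had a median of 5.93 kb, with 48 regions within 500 bp, 73 within 1 kb and a range of 7 bp to 492 kb. For the 48 nearest ones, the absence of an earlier call rests on peak edges as well as on presence.

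Ranking by the lowest of its 3 fold percentiles put a region on chromosome 4 first. It lies at chr4:45834319-45834616 inside Stra6l, 7.69 kb from Igfbpl1, an IGF-binding-protein-like gene, and had folds of 4.81, 3.16 and 3.51, all at or above the 90.2nd percentile. The second, chr4:110144524-110145163, lies between genes 58.6 kb from Elavl4, a neuronal RNA-binding protein gene, with folds of 4.60, 2.81 and 3.38. An earlier-stage peak lay 233 bp from it. Both were high in each of the 3 lists.

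The next ones in rank lay mostly outside protein-coding genes. A region 4.70 kb from the olfactory receptor gene Olfr803 (chr10:129696364-129697173) had folds of 4.81, 2.90 and 3.24, and its nearest earlier peak was 392 kb away. One 63.4 kb from Kif5b, a kinesin heavy chain gene, and inside the long non-coding RNA gene Gm41664, reached 5.25, 3.50 and 3.24. Another, 95.3 kb from Far2, a fatty acyl-CoA reductase gene (chr6:147951974-147952331), reached 5.13, 3.69 and 3.24. The last 2 stood above the 97th percentile in samples 1 and 2 and at the 79.9th in sample 3.

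A region 18.4 kb from Parp1, the poly(ADP-ribose) polymerase gene (chr1:180619400-180619856), had the highest fold of all 318 in sample 1, with values of 5.83, 2.73 and 3.47. One inside Ankfn1 (chr11:89776376-89776703) had 4.81, 2.73 and 3.38. One 8.86 kb from Med18, a Mediator subunit gene (chr4:132472439-132472939), had 4.31, 3.05 and 3.19, but the 3 peaks did not share a base there. One inside Ccdc17 (chr4:116598984-116599471) had 3.94, 2.81 and 3.24. The region near Fgf9 was the ninth of these and is described with the FGF genes.

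At the other end, the 5 regions with the lowest rank had folds near the bottom of at least 1 list. The lowest, chr2:27227746-27227912 inside Sardh, the sarcosine dehydrogenase gene, had folds of 2.32, 1.97 and 2.02 and −log10 q of 1.35, 2.34 and 1.54. The others lay inside Fgfrl1, Rhbdl1, a rhomboid protease family gene, and Pgd, the 6-phosphogluconate dehydrogenase gene, and 1.16 kb from Rtn4r, the Nogo receptor gene. Their lowest percentile ranged from 0.319 to 0.956.

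Just outside the rule were regions that all 3 E12.5 lists and exactly 1 earlier list called. There were 417 of these, more than the 318 with none. In 215 of the 417 the earlier list was E11.5 sample 3, the longest list of that stage (41457 peaks). In 63, 77 and 59 it was E10.5 sample 1, 2 or 3, with 16057, 19095 and 14886 peaks. In 1 and 2 it was E11.5 sample 1 or 2, with 5682 and 24908 peaks. E11.5 sample 2 was thus longer than each E10.5 list but was the earlier list in fewer regions. On the other side, 1314 regions without an earlier call were missed by E12.5 sample 1 alone, 259 by sample 2 alone and 3378 by sample 3 alone. Membership thus moved with some single lists: leaving out E11.5 sample 3 gave 533 regions, and leaving out E12.5 sample 1, 2 or 3 gave 1628, 552 and 3697. Leaving out E10.5 sample 1, 2 or 3 gave 378, 394 and 378. Without E11.5 sample 1 or 2 the number was 319 or 321, so absence at E11.5 rested mostly on sample 3.

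The 3 E12.5 lists overlapped unequally. Samples 1 (26584 peaks) and 3 (19139 peaks) shared 4325 regions, whereas each shared more with sample 2 (50361 peaks), at 10282 and 8530. With the E10.5 lists sample 3 shared 5114 to 6457 regions, more than with sample 1, and sample 1 shared 4092 to 4404, about as many as with sample 3. The part of these list differences in the membership of the 318 was not tested.

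The number was also set against what the lists' lengths give. Under a conditional logit model, in which each list has 1 set of calling odds and each region its own, and the number of lists calling a region is kept, 188.2 regions called by the 3 E12.5 lists alone were expected, and 318 were seen (1.69 times as many). The same ratio was 28.1 for E11.5, with 618 seen and 22.0 expected, and 2.25 for E10.5, with 33 seen and 14.7 expected. With separate odds for regions near gene boundaries the ratio for E12.5 was 1.46 (217.3 expected), that for E11.5 fell to 12.2 (50.8 expected), and that for E10.5 was 2.24 (14.7 expected). The odds were fitted to the same calls that the rule used, the 318 regions included. These ratios are thus descriptions, and no test was made of them.

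**Figure D2:**
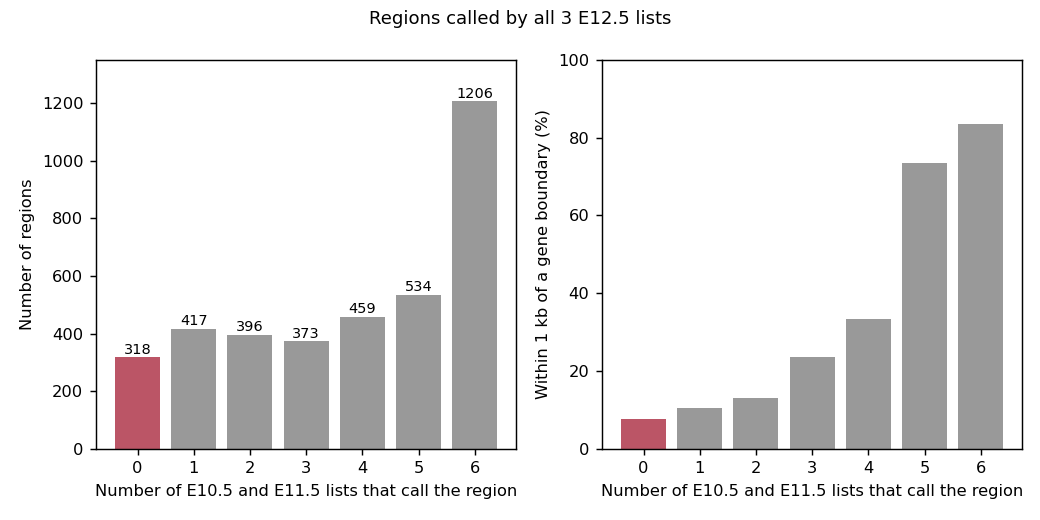
Left, number of regions called by all 3 E12.5 lists (vertical axis) by how many of the 6 E10.5 and E11.5 lists also called them (horizontal axis), with the 318 E12.5-only regions in red. Right, the percentage of each group within 1 kb of the start or end of a protein-coding gene, which runs from 7.55% at 0 earlier lists to 83.5% at 6.

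Position differed in a graded way with the number of earlier calls. Of the 318, 24 (7.55%) had their strongest summit within 1 kb of the start or end of a protein-coding gene. The share was 10.6%, 13.1%, 23.6%, 33.3%, 73.4% and 83.5% for regions that all 3 E12.5 lists and 1 to 6 earlier lists called. Over all regions it was 14.6%, and over E11.5-only regions 51.6%, so the E12.5-only and E11.5-only sets lay on either side of the share of all regions. Of the 33 E10.5-only regions, 8 (24.2%) were that close. Regions called by 2 E12.5 lists and no earlier list were similar to the 318, at 8.45% without sample 1, 8.88% without sample 2 and 4.41% without sample 3. A low share near boundaries was thus not particular to the 318.

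Most of the remaining E12.5-only regions were at middle distances. In 106 (33.3%) the summit lay 1 to 10 kb from a boundary, in 154 (48.4%) 10 to 100 kb, and in 34 (10.7%) beyond 100 kb. The median was 14.2 kb, close to the 16.1 kb of all regions, which are mostly called by a single list, and unlike the 0.903 kb of regions shared with earlier lists and the 0.798 kb of E11.5-only regions. Over all regions the shares at 10 to 100 kb and beyond 100 kb were 45.3% and 14.2%.

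**Figure D3:**
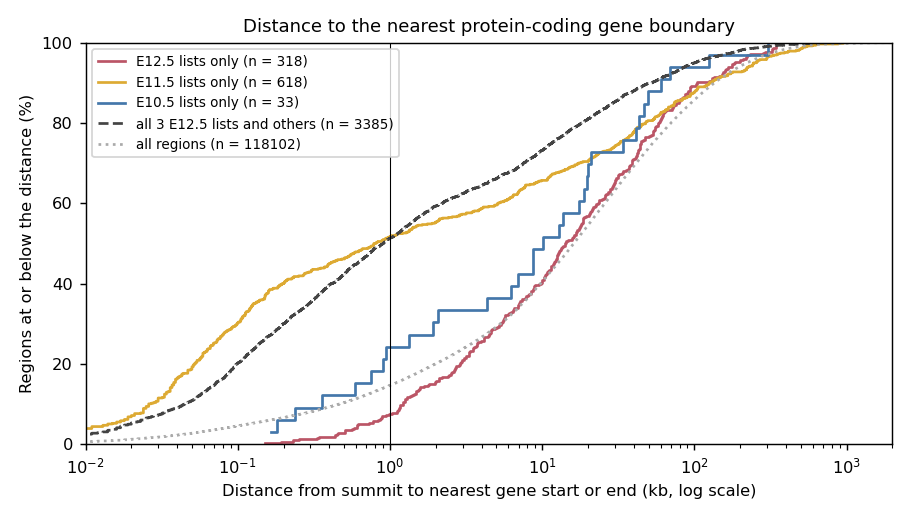
Cumulative percentage of regions (vertical axis) by distance from the strongest summit to the nearest start or end of a protein-coding gene (horizontal axis, kb, log scale), for 5 sets. At 1 kb (vertical line) the E12.5-only curve (red) is at 7.55%, below all regions at 14.6% and far below the E11.5-only set at 51.6% and the shared set at 51.3%.

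Measured from transcription starts, 15 of 308 regions (4.87%) lay within 1 kb, compared with 14.1% of all regions and 52.7% of E11.5-only regions. Inside a protein-coding gene lay 179 of 318 (56.3%), near the 54.3% of all regions, and inside a long non-coding RNA gene lay 31 (9.75%, against 11.01%). The protein-coding genes that held a region had a median length of 63.8 kb, against 79.7 kb for those of all regions. Position within the gene, exon or intron, is not given because no exon table was used.

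Each region was assigned to the protein-coding gene with the nearest boundary within 100 kb, which gave 284 regions to 279 genes. That is 1.61% of the 17337 genes that had any region within the same distance. Of the 458 such genes in 22 lists of facial development, signalling and cell type markers, 9 were nearest to an E12.5-only region (1.97%), a share near that of all genes. No gene carried more than 2.

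In the FGF list 2 of 29 genes were nearest to an E12.5-only region. Fgf9 encodes a ligand of the family. Its region (chr14:58138593-58139041), 25.9 kb from the gene, had folds of 3.94, 2.73 and 3.24, at percentiles 76.2, 77.6 and 79.9, and so was above the middle of all 3 lists. Fgfrl1 encodes an FGF receptor-like protein that lacks the kinase domain. Its region (chr5:108695588-108695878) lies inside the gene with folds of 2.59, 2.14 and 2.02, at or below the 11.9th percentile in each list. The pair thus came from opposite ends of the set.

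Retinoic acid gave 1 of 19 genes, Rarb, a nuclear receptor for retinoic acid. The region lies inside the gene at chr14:16501994-16502615, 71.5 kb from its boundary, with folds of 3.50, 2.30 and 3.68 at percentiles 50.7, 30.1 and 93.9, so it was high in sample 3 and not in the others. Axon guidance gave 1 of 34, the ephrin ligand gene Efnb2, 37.3 kb from a region (chr8:8579818-8580004) with folds of 3.60, 2.56 and 2.53. The matrix list gave 1 of 31, the collagen gene Col6a2, 12.5 kb from a region (chr10:76635706-76636233) with folds of 3.45, 2.19 and 2.82. The lowest percentile was 19.3 for the Efnb2 region and 16.1 for the Col6a2 region.

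Cadherins and their partners gave 2 of 29 genes. Cdh4, the R-cadherin gene, had 2 regions. The one inside the gene (chr2:179805818-179806102) had folds of 3.10, 2.32 and 2.35, and the one 3.80 kb outside it (chr2:179903081-179903347) had 3.90, 2.49 and 2.16. Ajap1, which encodes an adherens junction-associated protein, was 72.3 kb from a region (chr4:153556011-153556348) with folds of 3.53, 2.09 and 2.61. All 3 of these regions had a percentile under 10 in at least 1 list.

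No E12.5-only region was nearest to a gene of the cranial neural crest list (20 genes), the maxillary and palate patterning list (41), or the osteogenic, chondrogenic and odontogenic lists (18 each). The same held for hedgehog (17), BMP and TGF-beta (34), Wnt (50), PDGF and endothelin (11), Notch (19) and cell cycle genes (22). The share of all genes nearest to such a region was itself low, at 1.61%. The 618 E11.5-only regions touched 20 of the 458 list genes (4.37%, against 3.07% of all genes), and the 3385 shared regions 103 (22.5%, against 17.1%).

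Marker lists of other cell types held 2 such genes. Elavl4 was 1 of 17 neuronal and glial markers, and Runx1, a factor of blood formation that also acts in skeletal tissue, was 1 of 11 blood and macrophage markers. The Runx1 region (chr16:92873057-92873639), 47.1 kb away, had folds of 3.94, 3.23 and 2.61, and its 3 peaks did not share a base. The epithelial (16 genes), endothelial (15), myogenic (14) and pericyte (9) markers had none. Accessibility near a marker is not its expression, and the part of other cell types in the set was not tested.

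Counting regions inside list genes at any distance from a boundary, a view chosen after their values were seen, gave 7 in the 469 list genes. Over all 21631 genes the count was 179, and no test was made of the 7. Besides Cdh4, Fgfrl1 and Rarb the genes were Sox5, a SOX factor of cartilage formation, Slit3, a guidance ligand gene, Zfhx3, a zinc-finger homeobox gene, and the cell cycle factor gene E2f1. The Sox5 region (chr6:144460203-144460646) lies 322 kb from a boundary and had folds of 5.67, 3.24 and 3.11, at percentiles 99.3, 95.4 and 72.4. It was the strongest of the 7. The Slit3, Zfhx3 and E2f1 regions had a lowest percentile of 37.3, 15.6 and 5.02.

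Besides Cdh4, 4 genes were nearest to 2 regions. Dok5, which encodes a docking protein of tyrosine kinase signalling, holds both of its regions on chromosome 2, with folds of 4.60, 2.64 and 2.57 and of 4.33, 2.42 and 2.66. Ctdspl, a phosphatase-like gene, also holds both, with folds of 4.36, 2.58 and 2.95 and of 3.76, 2.77 and 2.55. In both genes sample 1 gave the highest fold percentile of at least 1 region. Csmd2 holds a pair with folds of 4.06, 2.55 and 2.56 and of 4.56, 2.03 and 2.88. Phyhipl was nearest to a region inside the adjoining gene Fam13c (4.16, 2.97 and 3.10) and to one between genes (3.41, 2.85 and 3.13). In all, 10 pairs of neighbouring E12.5-only regions lay under 100 kb apart.

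The rule did not use the other regions around the 318, so their calls were read as a separate measure, list by list, against the number expected from the same kind of odds. Within 100 kb lay 6532 other regions. The E12.5 lists called 1.13, 1.08 and 1.10 times the expected number of them, and the E10.5 lists 1.00, 1.03 and 1.03 times. The E11.5 lists called 0.713, 0.708 and 0.966 times the expected number. All 3 E12.5 values thus exceeded all 6 earlier ones, by a margin that was small against E10.5 and larger against E11.5 samples 1 and 2.

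On the log2 scale the E12.5 mean was 0.30 above the mean of the earlier lists. The E12.5 lists had 0.11 to 0.17, the E10.5 lists 0.003 to 0.045, and E11.5 samples 1, 2 and 3 had -0.49, -0.50 and -0.05. Most of the difference thus came from E11.5 samples 1 and 2. The difference was 0.31 within 20 kb and 0.29 with separate odds for regions near gene boundaries, and ran from 0.23 to 0.34 when each list was left out. E11.5 samples 1 and 2 were never both left out. The expectation redistributes a fixed number of calls, so an excess in 1 list implies a deficit in others. No p is given, because the neighbourhoods were chosen through the calls of these lists.

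**Figure D4:**
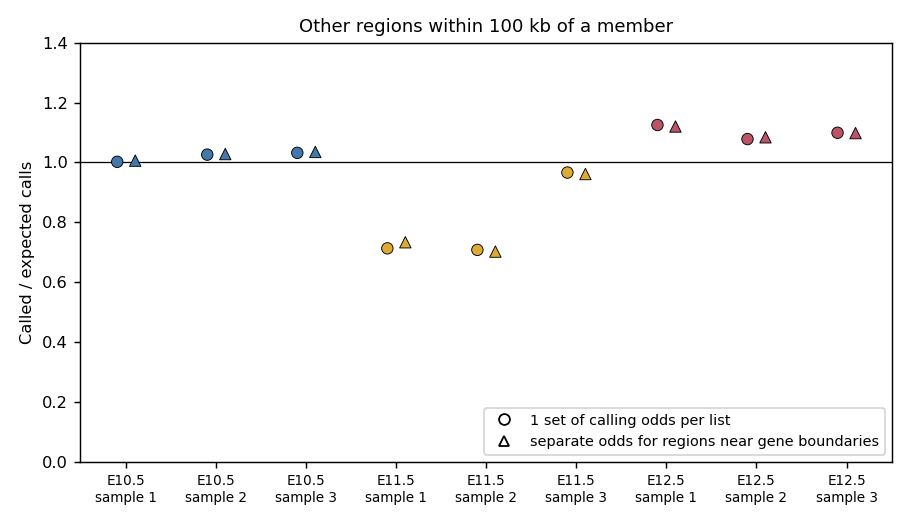
Called divided by expected calls (vertical axis) over the 6532 other regions within 100 kb of an E12.5-only region, by list (horizontal axis), with 1 set of calling odds per list (circles) or separate odds near gene boundaries (triangles). The E12.5 lists (red) sit at 1.08 to 1.13 as circles, above the E10.5 lists (blue) at 1.00 to 1.03 and the E11.5 lists (yellow) at 0.708 to 0.966.

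Gene by gene, the same question was tested with limma on calls minus expected calls, divided by the expected SD, with the 318 regions taken out first. Genes near the 318 were still chosen through the calls of these lists, and taking the regions out does not undo that. Their p-values below carry this limit, and no p is given for them as a set. Differences below are E12.5 minus the mean of both earlier stages, in units of that SD. The variance of each gene was taken largely from all genes together (314 prior degrees of freedom). The SEs are therefore near the same, and a gene's own spread between samples enters its p only slightly. Of 7347 genes with at least 5 other regions, 40 (0.544%) had more calls at E12.5 and 26 (0.354%) fewer, at a Benjamini-Hochberg adjusted p of 0.05. Of the 279 genes nearest to an E12.5-only region, 199 could be tested, and 4 of them (2.01%) had more calls and 0 fewer. At an unadjusted p of 0.05 (limma), 29 of the 199 (14.6%) had more calls, beside 605 of all 7347 genes (8.2%). Fewer calls were seen in 5 of the 199 and in 415 of the 7347. The difference was positive in 62.8% of the 199 and in 55.5% of all genes, with medians of 0.40 and 0.14. The 199 were also richer in regions: 129 of them had 10 or more, beside 3023 of the 7347. Among genes with 10 or more, the positive shares were closer, at 67.4% and 63.9%, but the medians were not, at 0.63 and 0.32. Of these 129 and 3023 genes, 5 and 41 had more calls at the adjusted threshold. The part of region number in the difference was not tested.

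Ajap1 showed the clearest difference of the 4. Of its 38 other regions the E10.5 lists called 1, 2 and 1, the E11.5 lists 0, 2 and 5, and the E12.5 lists 12, 20 and 7, and no earlier list reached the lowest E12.5 value. The difference was 3.55 ± 0.725 (SE; adjusted p = 0.00391, limma), and it was past the threshold in 14 of 15 alternatives. In the exception, with regions within 20 kb only, it was 0.30 (adjusted p = 0.923).

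Rbm19 encodes an RNA-binding protein of ribosome assembly. Its 26 other regions were called 0, 1 and 1 times at E10.5, 0, 1 and 3 times at E11.5, and 11, 12 and 3 times at E12.5, so sample 3 of E12.5 matched the highest earlier list. The difference was 3.09 ± 0.733 (adjusted p = 0.0179, limma), with adjusted p from 0.0043 to 0.30 over 14 alternatives. Myo18b, a gene for a myosin of striated muscle, had 33 other regions called 0, 3 and 3, then 0, 1 and 8, then 14, 18 and 4 times. Here the groups overlapped through E11.5 sample 3 and E12.5 sample 3. The difference was 2.96 ± 0.735 (adjusted p = 0.0258, limma; 0.0078 to 0.439 over 15 alternatives).

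Lmx1b encodes a LIM homeodomain factor known for dorsal limb patterning. Of its 30 other regions the E10.5 lists called 4, 2 and 2, the E11.5 lists 0, 1 and 8, and the E12.5 lists 9, 14 and 8. The difference was 2.62 ± 0.729 (adjusted p = 0.0494, limma), and the call was lost in 11 of 15 alternatives, with adjusted p from 0.0243 to 0.516. With separate odds near gene boundaries, Ajap1 alone of the 4 stayed past the threshold (adjusted p = 0.0474), and Rbm19, Myo18b and Lmx1b had adjusted p of 0.0828, 0.113 and 0.145.

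**Figure D5:**
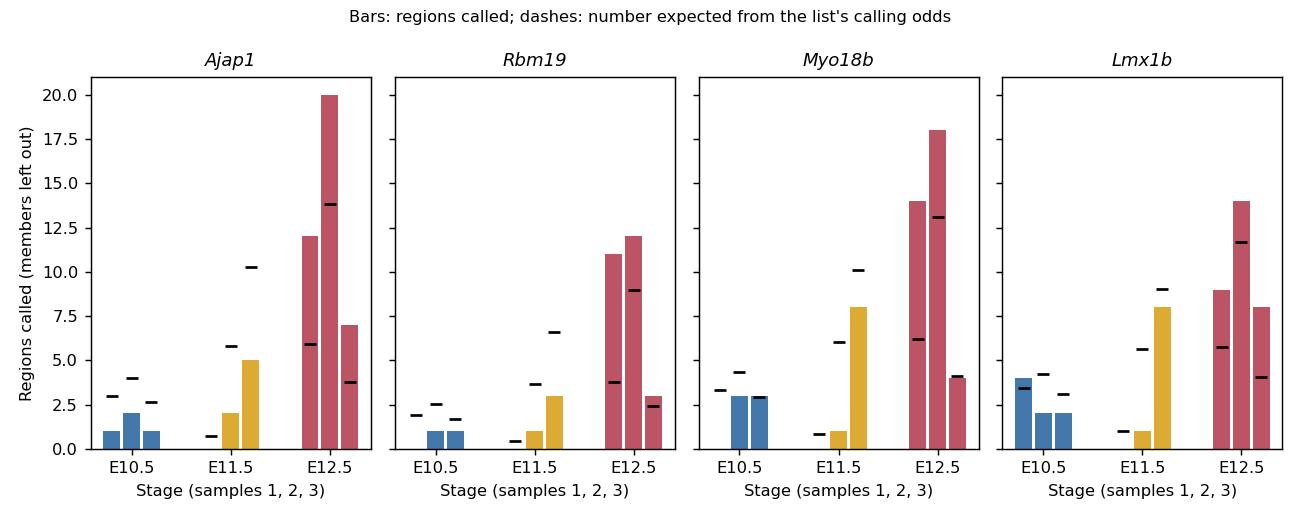
Number of other regions called (vertical axis) in each of the 9 lists (horizontal axis, 3 samples per stage) around Ajap1, Rbm19, Myo18b and Lmx1b, with the E12.5-only regions left out; black dashes give the number expected from the list's odds. Ajap1 bars reach 12, 20 and 7 at E12.5, against at most 5 in the earlier lists.

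The other genes of the lists that are nearest to an E12.5-only region did not pass this test, and Fgfrl1 had too few regions for it. The difference was 2.48 ± 0.734 for Cdh4 (adjusted p = 0.0655, limma), 0.91 ± 0.726 for Fgf9 (0.613), 0.63 ± 0.728 for Efnb2 (0.76) and 0.64 ± 0.729 for Runx1 (0.756). Values were below 0 for Elavl4 at -2.29 ± 0.731 (0.0896), Rarb at -1.33 ± 0.727 (0.397) and Col6a2 at -0.60 ± 0.740 (0.777). Cdh4 passed in 2 of 15 alternatives, without E12.5 sample 2 (3.21, adjusted p = 0.0361, limma) and with the E12.5-only regions kept in (3.10, 0.0172), and its adjusted p ran from 0.0172 to 0.678 over them. The other 6 of these genes passed in none of their alternatives, while Ajap1, the remaining list gene, passed.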

How the data were processed

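ATAC-seq peaks of 9 samples were used, 3 per stage, sequenced in 23 runs, with 1 peak list for each sample. Per the submitters' processing notes the tools were Bowtie2, deepTools 3.3.1 and MACS2, and the build was mm10; the labels give no parameters. The deposited lists give, per peak, a fold enrichment (a ratio), a −log10 q-value and a summit position, as the authors' peak caller wrote them. Read depth is not in these lists, so no counting interval can be given; list length ran from 5682 to 50361 peaks and limits what an absent call shows.

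Peaks on the 19 autosomes and X were merged by at least 1 bp. Distances run from the strongest summit to the nearest start or end of 21631 RefSeq protein-coding genes (GRCm38.p6); promoter windows cover 308 of the 318 regions' chromosomes. Expected calls came from a conditional logit model. Gene residuals (5 or more regions called by 1 to 8 lists, within 100 kb) were tested with limma 3.58.1 (R 4.3.3), stage as a factor over all 9 lists, Benjamini-Hochberg over 7347 genes, and checked on simulated data. Other steps used Python 3.11.15, NumPy 2.4.6 and pandas 2.3.3.

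The members, the gene lists and the alternatives were chosen with earlier results of these data known. Genes named are those of the lists nearest to a region, those nearest to 2 regions, the 10 regions highest and 5 lowest by the lowest of their 3 fold percentiles, the promoter regions, and genes passing limma. Alternatives covered overlap, summit and q thresholds, equal list lengths, distances, region and gene filters, a replicate block and leaving out each list. Sample numbers did not pair the samples.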

Additional observations from a re-analysis of the deposited data

How the results depend on the processing

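The number of E12.5-only regions was within 1.5 times of 318 under 9 alternatives and outside that under 6. A −log10 q of at least 5 gave 14 regions, none of them among the 318, as none of the 318 reached that value in all 3 E12.5 lists. Cutting each list to its best 5682 peaks gave 59, of which 2 were among the 318. Leaving out single lists gave 319 to 3697 regions; of the 3697 without E12.5 sample 3, 296 were among the 318. A 50 bp overlap gave 280, of which 269 were shared. The share near a gene boundary was 15.4% within 2 kb and 28.9% within 5 kb, by construction, and 4.71% to 8.88% when single lists were left out, with 4.71% without E12.5 sample 3.

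The limma counts moved most. With the replicate block 42 genes passed upward and 28 downward, beside 40 and 26 without it, and 4 genes nearest to an E12.5-only region had more in both; correlations of same-numbered samples lay between -0.079 and 0.021, so the numbers were not read as pairs. Limiting regions to those of 2 to 8 lists left 19 genes upward, 2 of them nearest to an E12.5-only region; within 20 kb the counts were 0 more (349 at an unadjusted p of 0.05), 0 fewer (221) and 0; with odds by boundary class 3, 8 and 1; genes with 10 or more regions left 5 with fewer. Keeping the 318 regions in gave 12 such genes, since their own calls then enter. Leaving out single lists gave 3 to 64 genes with more calls, 2 to 40 with fewer, and 1 to 5 nearest to an E12.5-only region with more, with 1 when E12.5 sample 1, E11.5 sample 2 or either of E10.5 samples 1 and 2 was absent; in every alternative 0 such genes had fewer. The sign turned for Col6a2 (0.0139 with the 318 regions kept, and -1.01 to 0.354 when single lists were left out, the highest without E10.5 sample 2) and Runx1 (-0.134 within 20 kb). The cause of these changes was not tested. The lists hold no depth, so a missing call cannot be told from shallow sequencing.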

Other observations

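By chromosome, the E12.5-only regions were most numerous on chromosomes 4 and 5, with 29 each (9.12%), where 6.38% and 7.30% of all regions lie. Chromosome 13 held 6 (1.89%, against 4.33% of all regions), and the X chromosome held 1 (0.31%, against 1.26%). These shares are descriptions with no test. Of the 31 regions inside a long non-coding RNA gene, 24 lay outside every protein-coding gene.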
